A study of Mus musculus with 9 samples.

Results

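The TNF receptor family and TRAF genes described here are 10 genes of the 23413 in the count table of sorted mouse liver macrophages. They are the receptors Tnfrsf1a, Tnfrsf1b, Tnfrsf9 and Tnfrsf21, the ligands Tnfsf9, Tnfsf12 and Tnfsf13b, and the adaptors Traf1, Traf2 and Traf3. The set was chosen by name around Traf1 and Tnfrsf9, which had been seen to change in these same libraries, so the values of those 2 genes are given as a description, and both are left out of the counts of calls below. All 10 were found in the table, and all 10 passed the filter on low counts that left 11393 genes for testing.

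KCs (Kupffer cells) line the sinusoids of the liver as its own macrophages. The study gave diphenyleneiodonium (DPI) to mice on a high-fat diet (HFD). By the study's methods, male C57BL/6 mice entered the experiment at 5 weeks of age and were kept on normal diet (ND) or HFD for 8 weeks. From week 3, the HFD-fed mice received vehicle or DPI at 2 mg/kg, once every 5 days. Libraries were made from F4/80+CD11b+Gr1low cells sorted from the liver, 2 from ND mice, 3 from HFD-fed mice given vehicle and 4 from HFD-fed mice given DPI. The sample labels describe the treatment differently, as purified cells kept with DMSO or 500 nM DPI for 24 h, and the ND libraries carry no treatment, so the diet contrast also sets untreated against vehicle-injected mice. The labels name 1 mouse for each library, but the study's text gives more mice per group than there are libraries, so whether mice were pooled is not known. No group carries an engineered allele.

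Library totals lay between 3534325 and 15585775 counts, of which 27% to 44.5% fell on the ribosomal RNA precursor Rn45s, and 3 counts, the floor used here, corresponded to 0.184 to 1.02 CPM (counts scaled to a common library total with TMM factors). The rank correlation of the 2 ND libraries was 0.740, against 0.838 to 0.887 for pairs within the vehicle or the DPI group. Among markers of the labelled cell type, Csf1r, Cd68, Adgre1 (listed as Emr1) and Itgam had at least 219 counts in every library. Markers that define resident KCs were low or uneven: Marco had 0 or 1 count in every library, Vsig4 exceeded 5 counts in 1 library, and Clec4f had 6 counts or fewer in 6 of 9 libraries. The 2 ND libraries differed, with 0 and 244 counts of Clec4f, 0 and 113 of Cd5l and 2 and 163 of Clec1b. In the first DPI library these 3 markers had 219, 601 and 114 counts. The cells are therefore called sorted liver macrophages below. In bulk libraries such as these, fewer cells of a type and less RNA per cell cannot be told apart.

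TNF family ligands are trimeric proteins, mostly held on the cell surface, that bind receptors of the TNF receptor family. Receptors with a death domain, such as TNFR1 (Tnfrsf1a) and DR6 (Tnfrsf21), can recruit death-domain adaptors. Receptors without one, such as TNFR2 (Tnfrsf1b) and CD137 (Tnfrsf9), bind TRAF proteins directly, and TRAF2 and TRAF3 act as adaptors that set the level of NF-kB and MAP kinase signalling. Traf1, Tnfrsf9 and Tnfrsf1b are known as genes that NF-kB or inflammatory stimuli can induce in leukocytes.

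The start regions of Traf1 and Tnfrsf9 are shown because the gene set was chosen around this pair. Windows from 250 bases before to 50 bases after each start were taken from RefSeq on GRCm38.p6, and 8 of the 10 members had one (10 windows in all), with no entry used for Tnfsf9 and Tnfsf12. Capitals mark matches to the NF-kB consensus or to the AP-1 motif TGANTCA, both searched on both strands. The sequences run 5′ to 3′ on the strand of the gene.

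Traf1 (chr2:34961723-34962022, minus strand): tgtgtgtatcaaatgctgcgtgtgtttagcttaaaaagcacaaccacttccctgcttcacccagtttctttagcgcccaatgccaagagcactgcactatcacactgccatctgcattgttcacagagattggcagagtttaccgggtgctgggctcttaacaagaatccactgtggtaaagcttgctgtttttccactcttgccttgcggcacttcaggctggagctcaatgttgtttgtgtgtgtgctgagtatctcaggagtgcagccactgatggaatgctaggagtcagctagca

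Tnfrsf9, upstream start (chr4:150919905-150920204, plus strand): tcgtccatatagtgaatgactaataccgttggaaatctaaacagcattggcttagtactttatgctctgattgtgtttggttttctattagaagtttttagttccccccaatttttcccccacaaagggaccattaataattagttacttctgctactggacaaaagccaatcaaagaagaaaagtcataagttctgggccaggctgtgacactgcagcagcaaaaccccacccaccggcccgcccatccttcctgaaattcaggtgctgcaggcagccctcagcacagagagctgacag

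Tnfrsf9, downstream start (chr4:150927749-150928048, plus strand): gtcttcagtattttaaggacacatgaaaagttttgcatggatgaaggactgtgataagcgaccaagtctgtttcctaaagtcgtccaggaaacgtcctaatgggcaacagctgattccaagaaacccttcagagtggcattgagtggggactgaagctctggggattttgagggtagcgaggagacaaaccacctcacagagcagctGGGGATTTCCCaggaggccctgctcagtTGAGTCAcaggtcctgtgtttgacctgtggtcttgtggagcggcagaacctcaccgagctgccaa

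The downstream Tnfrsf9 window held overlapping NF-kB matches from 43 to 33 bases before the start and an AP-1 match from 15 to 9 bases before it. The Traf1 window and the upstream Tnfrsf9 window held neither. Of the other windows, that of Traf3 held an NF-kB match from 10 to 1 bases before the start, and both overlapping windows of Tnfsf13b held AP-1 letters. Over all 32851 promoter windows of this length, 4.51% held the NF-kB consensus and 7.81% held TGANTCA. These matches describe letters in the window and not binding.

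The levels of the 10 genes were first ordered on a scale per transcript length, as CPM per kilobase of exon. Tnfrsf1a, the receptor that most cells carry, and Tnfrsf1b were highest, with medians over the 9 libraries of 68.2 and 62.9 CPM per kb. Tnfsf9 followed at 19.5 and Tnfrsf21 at 12.0 CPM per kb. The adaptors were lower, Traf2 at 3.80, Traf1 at 2.76 and Traf3 at 1.74 CPM per kb. Tnfsf12 lay at 1.71, Tnfsf13b at 0.321 and Tnfrsf9 at 0.0225 CPM per kb. Neighbours in this order had overlapping ranges over the libraries, except between Tnfrsf1b and Tnfsf9 and between Tnfrsf21 and Traf2.

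**Figure D1:**
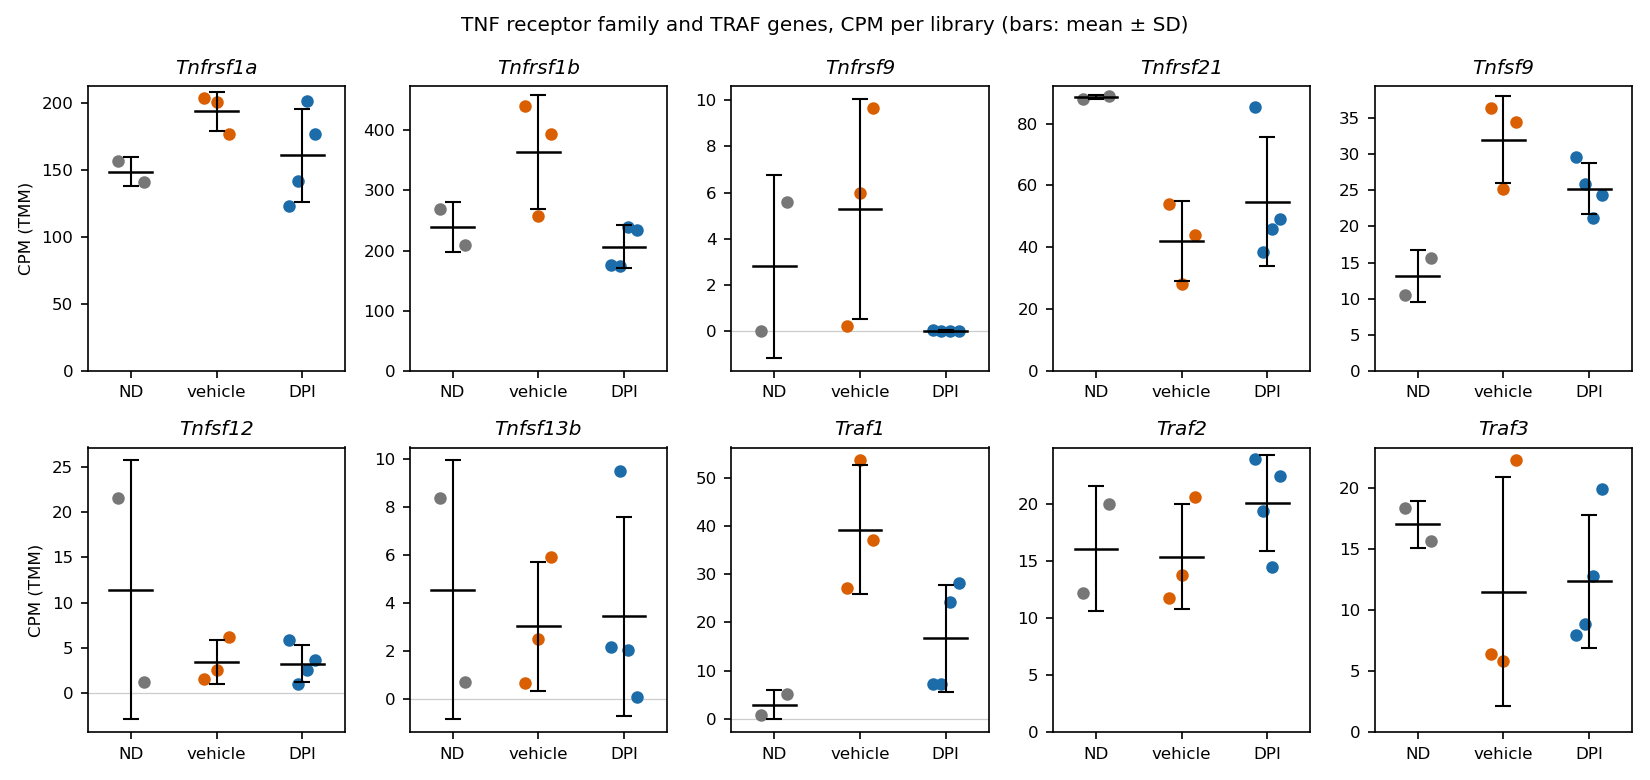
CPM (TMM scaling, from 0 upwards, error bars may run below 0) of each member in 2 ND, 3 vehicle and 4 DPI libraries. Points are libraries and black lines are the mean ± SD. Traf1 reaches its highest values in the vehicle libraries (27.1 to 53.7 CPM), Tnfrsf9 is at or next to 0 in every DPI library, and the DPI libraries of Tnfrsf1b lie below every vehicle library.

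Comparisons were made across all tested genes with edgeR's quasi-likelihood test: vehicle against ND for the diet, DPI against vehicle for the compound, and DPI against ND. They share libraries, so they are not independent of each other. The call rules were a Benjamini-Hochberg adjusted p under 0.05 over all tested genes, and the study's threshold of an unadjusted p under 0.05 with a change of at least 2-fold. Of the 8 members other than Traf1 and Tnfrsf9, the study's threshold called 1 higher (Tnfsf9) and 1 lower (Tnfrsf21) in vehicle against ND, beside 11.7% of all tested genes (7.03% higher and 4.63% lower). It called 0 of the 8 in DPI against vehicle, beside 2.84% of all genes (1.5% higher and 1.34% lower), and 0 in DPI against ND, beside 9.29% (6.24% higher and 3.05% lower). Traf1 lay more than 2-fold higher in vehicle and in DPI than in ND and more than 2-fold lower in DPI than in vehicle, and Tnfrsf9 more than 2-fold lower in DPI than in both other groups.

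None of the 8 had an adjusted p under 0.05 by edgeR in any comparison, beside 0.0614% of all genes in vehicle against ND, 0% in DPI against vehicle and 0.00878% in DPI against ND. At an unadjusted edgeR p under 0.05 there were 2 of the 8 in vehicle against ND (13% of all genes), 1 in DPI against vehicle (4.13%) and 1 in DPI against ND (10.7%). DESeq2 called 0 of the 8 at an adjusted p under 0.05, beside 2.74%, 0.0176% and 1.92% of all genes. The median log2 fold change of the 8 was -0.32 in vehicle against ND, beside 0.03 for all genes, 0.05 beside 0.04 in DPI against vehicle, and -0.32 beside 0.04 in DPI against ND. Unscaled library sizes in place of TMM factors turned the balance of calls over all genes in vehicle against ND from 801 higher and 528 lower to 539 higher and 933 lower, in DPI against vehicle from 171 and 153 to 196 and 101, and in DPI against ND from 711 and 347 to 546 and 624.

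Among the receptors, Tnfrsf1b (chr4:145213463-145246870 on GRCm38, minus strand) differed most between DPI and vehicle of the members not used for the choice. TNFR2, its product, is a TNF receptor found mainly on leukocytes and endothelium. The 3 vehicle libraries had 441, 258 and 394 CPM and the 4 DPI libraries 176, 175, 240 and 234 CPM. The ND libraries, at 269 and 210 CPM, overlapped both groups. Every DPI library was below every vehicle library, though the second vehicle library and the third DPI library were close. The mean was 206 ± 35.6 CPM (SD, n = 4) with DPI and 364 ± 94.8 CPM (n = 3) with vehicle, a log2 fold change of -0.82 with an SE of 0.26 and a 95% interval of -1.38 to -0.26. The unadjusted edgeR p was 0.00751 and the adjusted p 0.999. It fell short of the 2-fold limit of the study's threshold. With each library left out in turn the log2 fold change stayed between -1.02 and -0.67. Its level in vehicle exceeded that in ND by 0.61 on the log2 scale (SE 0.32), with overlapping groups and an edgeR p of 0.0794 (adjusted p 0.437). For DPI against ND the log2 difference was -0.21 (SE 0.30).

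Of the 8 members, Tnfrsf1b had DPI libraries that did not overlap the vehicle libraries, where 2.48% of all tested genes were lower without overlap and 3.38% higher (5.85% in all). In vehicle against ND, Tnfrsf1a and Tnfsf9 were higher without overlap and Tnfrsf21 lower, beside 15% and 12.5% of all genes (27.5% in all). Between DPI and ND, Tnfsf9 was higher and Tnfrsf21 lower without overlap, beside 11.7% and 8.5% of all genes (20.2% in all).

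Tnfrsf1a, the death-domain receptor for TNF, differed little between groups. It had 156 and 141 CPM in ND, 204, 200 and 177 CPM in vehicle and 123, 141, 201 and 177 CPM in DPI. The vehicle libraries were above both ND libraries, and the DPI libraries spanned the other groups. The log2 fold change was 0.38 (SE 0.30) in vehicle against ND with an edgeR p of 0.231 (adjusted p 0.634), and -0.27 (SE 0.25) in DPI against vehicle with a p of 0.301 (adjusted p 0.999). The 95% interval of the latter ran from -0.81 to 0.27, which leaves out a change of 2-fold in either direction.

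Tnfrsf21 (chr17:43016555-43089189, plus strand) encodes the death-domain receptor DR6. It had 88.0 and 88.9 CPM in the ND libraries, 53.9, 28.1 and 44.1 CPM in vehicle and 85.3, 38.4, 46.0 and 49.2 CPM in DPI. The ND libraries agreed closely and stood above all vehicle libraries, and 1 of the 4 DPI libraries lay near them. The vehicle mean was 42.1 ± 13.0 CPM (SD, n = 3) against 88.4 ± 0.658 CPM (n = 2), 2.10-fold lower in vehicle. On the log2 scale the difference was -1.07 (SE 0.40), with an edgeR p of 0.0193 and an adjusted p of 0.314. This gene passed the study's threshold, and no longer did without the second ND library (-1.04, with an unadjusted edgeR p of 0.0527) or the second vehicle library (-0.85, with an unadjusted edgeR p of 0.0680). DPI differed from vehicle by 0.39 (SE 0.35, adjusted p 0.999 by edgeR) and from ND by -0.69 (SE 0.38, adjusted p 0.531).

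Tnfrsf9 (chr4:150914562-150946102, plus strand) encodes CD137, a costimulatory receptor known from activated T and NK cells. Its reads were few. The ND libraries had 0 and 30 counts, the vehicle libraries 1, 33 and 39 counts and the DPI libraries 1, 0, 0 and 0 counts. Only 3 of the 9 libraries were above the floor, 1 of ND and 2 of vehicle, and the deepest library of the series, the first of DPI, had 1 count. In CPM these were 5.60 in the second ND library and 5.98 and 9.66 in the second vehicle library and the third. Set against the floor of 3 counts averaged over the DPI libraries, the mean of DPI was at least 10.2-fold lower than that of vehicle and at least 5.42-fold lower than that of ND. Without the third vehicle library the first bound was 6.01-fold. Without the first ND library the second was 10.8-fold, and without the second ND library both groups were at the floor and no fold can be given. The groups of DPI and vehicle did not overlap only because the same single count is worth 0.222 CPM in the first vehicle library and 0.0613 CPM in the first DPI library. Between vehicle and ND the fitted log2 difference was 0.91 with an SE of 1.80. Without the first ND library it was -0.074, and without the second it was 8.16. The DPI against ND value likewise came from the second ND library, without which it was 1.22 on the fitted log2 scale.

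Among the ligands, Tnfsf9 (chr17:57105325-57107757, plus strand), the ligand of CD137, was the one with adequate counts, 58 to 484 per library. It had 10.6 and 15.7 CPM in ND, 36.4, 25.2 and 34.4 CPM in vehicle, and 29.7, 25.8, 21.2 and 24.3 CPM in DPI. All 7 HFD libraries were above both ND libraries. The vehicle mean was 32.02 ± 5.98 CPM (SD, n = 3) against 13.1 ± 3.62 CPM (n = 2) in ND, a log2 fold change of 1.28 (SE 0.45) with an edgeR p of 0.0138 and an adjusted p of 0.289. For DPI against ND it was 0.94 (SE 0.43), with an edgeR p of 0.0467 and an adjusted p of 0.460. DPI and vehicle overlapped, with a log2 difference of -0.34 and a 95% interval of -1.12 to 0.43. The diet difference missed the study's threshold without the first ND library (1.04, with an unadjusted edgeR p of 0.0776) and with unscaled library sizes (0.99, with an unadjusted edgeR p of 0.0583). Tnfsf9 shares 192 exonic bases with Gm11110 on the opposite strand, and how the counting treated strand is not given in the sources used here.

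Tnfsf12 (TWEAK, the ligand of the receptor Fn14) and Tnfsf13b (BAFF, a survival factor for B cells) were too low and too uneven for a comparison of groups. Tnfsf12 had 118 and 7 counts in ND, 7, 14 and 25 in vehicle and 96, 3, 14 and 36 in DPI. The first ND library alone stood apart, at 21.5 CPM against 1.02 to 6.19 CPM in the others. Its log2 fold change in vehicle against ND was -1.73 (SE 1.14), and without that library it was 1.38. For DPI against ND it was -1.76 (SE 1.04), and 1.36 without that library. Tnfsf12 also shares 731 exonic bases with the readthrough gene Tnfsfm13 on the same strand, so its counts are uncertain. Tnfsf13b had 46 and 4 counts in ND, 3, 14 and 24 in vehicle and 36, 28, 11 and 1 in DPI. All 3 groups overlapped, and the SE of its log2 differences was 1.31 to 1.53.

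Among the adaptors, Traf1 (chr2:34941750-34961772, minus strand) spread most between groups. TRAF1 lacks the RING domain of its relatives and joins TRAF2 at TNFR2 and CD137. The ND libraries had 0.729 and 5.04 CPM (4 and 27 counts). The vehicle libraries had 27.1, 53.7 and 37.2 CPM (122, 296 and 150 counts). The DPI libraries had 7.23, 7.13, 24.3 and 28.2 CPM (118, 21, 131 and 276 counts). Every HFD library was above both ND libraries, and the DPI libraries fell into a lower and an upper pair, of which the single highest overlapped the lowest of vehicle. The means were 2.89 ± 3.05 CPM (SD, n = 2) in ND, 39.3 ± 13.4 CPM (n = 3) in vehicle and 16.7 ± 11.1 CPM (n = 4) in DPI. The log2 fold change was 3.76 (SE 0.91) in vehicle against ND, -1.23 (SE 0.63) in DPI against vehicle and 2.53 (SE 0.84) in DPI against ND. Without the first or the second ND library the vehicle against ND value was 2.97 or 5.75, so its size rested on 2 libraries that differed from each other. The DPI against vehicle value stayed between -1.72 and -0.93 in 17 alternatives.

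Traf2 and Traf3, the adaptors that bind many receptors of the family, had overlapping groups in all 3 comparisons. Traf2 had 12.2 and 19.98 CPM in ND, 11.8, 13.8 and 20.6 CPM in vehicle and 24.0, 19.4, 14.5 and 22.4 CPM in DPI. Its log2 differences were -0.07 (SE 0.52) in vehicle against ND, with a 95% interval of -1.18 to 1.05, and 0.39 (SE 0.44) in DPI against vehicle, with an interval of -0.55 to 1.33. Traf3 had 18.4 and 15.7 CPM in ND, 6.44, 5.80 and 22.3 CPM in vehicle and 7.97, 8.83, 12.8 and 19.9 CPM in DPI. The low vehicle libraries were below both ND libraries, but the third was above them. The intervals of Traf3, -2.06 to 0.92 in vehicle against ND and -1.15 to 1.38 in DPI against vehicle, leave changes of 2-fold open in size.

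**Figure D2:**
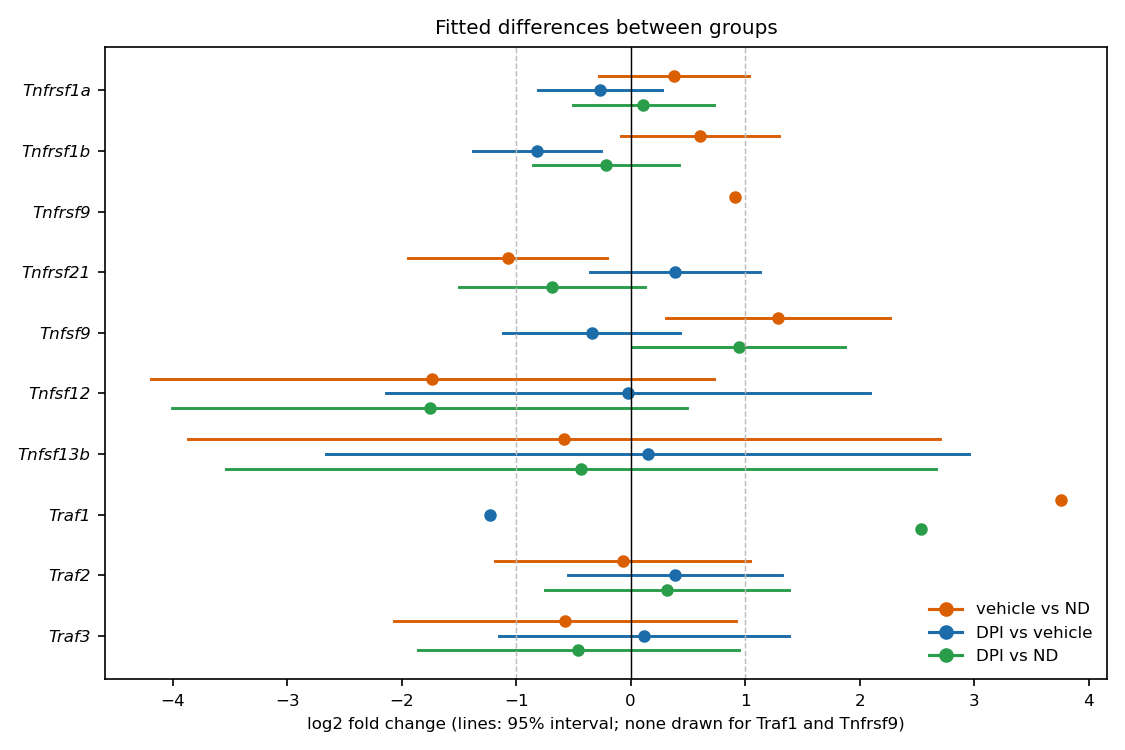
Fitted log2 fold changes of the members, with 95% intervals as lines and dashed lines at 2-fold, for vehicle against ND, DPI against vehicle and DPI against ND. The vehicle against ND intervals of Tnfrsf21 (-1.94 to -0.20) and Tnfsf9 (0.31 to 2.26) leave out 0, as do that of Tnfrsf1b in DPI against vehicle and that of Tnfsf9 in DPI against ND (0.016 to 1.87), and no interval is drawn for Traf1 and Tnfrsf9. The DPI values of Tnfrsf9 are bounds and are not plotted.

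The genes whose log2 CPM ran closest to Traf1 over the 9 libraries, by Pearson's r, were Coq10b (0.97), Gpr171 (0.96), Rnf125 (0.96), Dusp10 (0.95) and Scnn1a (0.94). Like Traf1, each of the 5 was lowest in the first ND library. Closest to Tnfrsf9 were Tesc (0.97), Ppm1l (0.95), Zfp790 (0.88), N4bp3 (0.85) and Pgm2l1 (0.84). The Tnfrsf9 values rest on few counts, as Tesc had 18, 6 and 11 counts in the 3 libraries where Tnfrsf9 was above the floor and 0 in the other 6. These 9 points share libraries, depth and group, and the coefficients are a description of them.

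The wider family was read from lists of 28 TNF receptors, 18 ligands, 7 TRAFs and 30 genes of receptor-proximal signalling, 83 in all, which include the 10 members. Of these, 68 were tested and 6 had 3 counts or fewer in every library. The counts that follow are over the 66 tested genes other than Traf1 and Tnfrsf9. In vehicle against ND, the study's threshold called 10 higher and 3 lower, 19.7% of the 66, beside 11.7% of all genes. In DPI against vehicle it called 0 higher and 1 lower, 1.52% beside 2.84%. Between DPI and ND it called 5 higher and 0 lower, 7.58% beside 9.29%. Genes that reached the minimum of the low-count filter in 1 of the groups compared and not without it entered through that group alone, which favours a difference. Leaving them out, 9 of 64 were called higher and 3 lower in vehicle than in ND (18.8% beside 11.1% of all genes), 0 and 1 of 62 in DPI against vehicle (1.61% beside 2.34%), and 4 and 0 of 64 in DPI against ND (6.25% beside 8.29%). None of the 66 passed an adjusted p under 0.05 by edgeR. At an unadjusted edgeR p under 0.05 there were 14, 6 and 8 of the 66 in the 3 comparisons, beside 13%, 4.13% and 10.7% of all genes. DESeq2 called 2, 0 and 1 of the 66 at an adjusted p under 0.05, beside 2.74%, 0.0176% and 1.92% of all genes. With unscaled library sizes the vehicle against ND calls of the 66 turned to 4 higher and 7 lower, as those over all genes turned (539 and 933), and the median over all genes went from 0.03 to -0.26. The medians of the 66 were 0.39, -0.034 and 0.25 in the 3 comparisons, the same with genes at a bound set to it, and with unscaled library sizes 0.099, 0.055 and 0.039. Relative to the median over all genes, that of the 66 in vehicle against ND was 0.35 with either scaling. A change of scaling shifts all genes nearly alike, so this value cannot show whether the calls depend on scaling.

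Among the 20 tested receptors other than Tnfrsf9, 5 were called higher and 1 lower in vehicle than in ND at the study's threshold, beside 7.03% and 4.63% of all genes, with a median log2 fold change of 0.52. The number of higher calls, not always of the same genes, was 1 with the replicate number as a block. It was 2 without the first ND library, without the first vehicle library or with a minimum of 10 counts in each library, and 3 without the second ND library, without the third vehicle library, with unscaled library sizes or after thinning. Of the 5 genes, 1 and 2 were among the calls made without the first and without the second ND library. The lower call, Tnfrsf21, was lost without the second ND or the second vehicle library. Cd40, the receptor for CD40 ligand on antigen-presenting cells, had 15.1 ± 4.05 CPM in ND, 35.5 ± 11.4 in vehicle and 18.8 ± 4.89 in DPI. Its log2 difference was 1.23 (SE 0.50, adjusted p 0.336 by edgeR) in vehicle against ND and -0.91 (SE 0.40, adjusted p 0.999) in DPI against vehicle. Tnfrsf11a (RANK, the receptor for RANKL) was higher by 2.38 (SE 1.09, adjusted p 0.381 by edgeR), with 12 and 16 counts in ND and 25 to 99 in vehicle, and kept to the study's threshold in 9 of 18 alternatives. Cd40 kept to it in 14. The other 3 had 0 counts in both ND libraries. Tnfrsf22, a decoy receptor for TRAIL with close paralogs that the counting could split, had 14, 15 and 30 counts in vehicle, at least 7.99-fold above the floor. It reached the minimum of the low-count filter in the vehicle libraries alone, so that its inclusion already required a difference. The bound was 5.27-fold without the third vehicle library. Tnfrsf25 and Tnfrsf4 (OX40), receptors known from T cells, were at least 5.22-fold and 3.49-fold higher, but Tnfrsf25 had 0 counts in 1 vehicle library and Tnfrsf4 had 25, 0 and 1. Without the first vehicle library the bound of Tnfrsf25 was 2.62-fold, and Tnfrsf4 was at the floor in both groups. Both calls were lost with the block and without either ND library.

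In DPI against vehicle, the 1 receptor called of these 20 was Tnfrsf14 (HVEM, the receptor for LIGHT and BTLA), which was lower, beside 1.34% of all genes. Tnfrsf14 had 11.8 ± 3.66 CPM with DPI (n = 4) and 27.9 ± 14.7 CPM with vehicle (n = 3), a log2 difference of -1.25 (SE 0.53) with an edgeR p of 0.0344, an adjusted p of 0.999 and overlapping groups. It ranged from -1.63 to -0.95 with each library left out and kept to the study's threshold in 4 of those 9 fits, and lost it with the block. The number of receptors called lower was 0 with the block and without the first vehicle, the third vehicle, the third DPI or the fourth DPI library, and 4 without the second vehicle library, where the lower calls over all genes also rose, from 153 to 307. The median of the 20 receptors in that comparison was -0.29, with 13 below 0 and 7 above. Of all genes, 46.9% lay below 0 there.

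The 11 tested ligands held 1 call, that of Tnfsf9, which was higher in vehicle than in ND (9.09% of the 11, near the 7.03% of all genes called higher), with a median log2 difference of 0.72 there and of -0.16 in DPI against vehicle. In vehicle against ND, ligand calls numbered 2 higher without the first vehicle library (9.60% of all genes called) or with DESeq2 (14.0%). With unscaled library sizes they were 0 higher and 1 lower (12.9%). Of the 6 TRAFs other than Traf1, 1 was called in vehicle against ND, Traf7, an atypical member with WD40 repeats, which was lower, beside 4.63% of all genes. Traf7 had 36.8 ± 1.83 CPM in ND, 17.95 ± 4.47 in vehicle and 34.1 ± 6.57 in DPI. Its log2 difference was -1.03 (SE 0.41, adjusted p 0.331 by edgeR) in vehicle against ND and 0.92 (SE 0.35, unadjusted p 0.0215 by edgeR, adjusted p 0.999) in DPI against vehicle, without overlap in either. The call was lost in 6 of 18 alternatives, namely the fit of 2 groups, the block, and without the second ND, the first vehicle, the third vehicle or the second DPI library.

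Of the 29 tested signalling genes, 4 were higher and 1 lower in vehicle than in ND, beside 7.03% and 4.63% of all genes. The counts were 1 higher and 4 lower with unscaled library sizes, 4 and 4 with DESeq2, 4 and 3 with RLE scaling or no filter, 3 and 2 with a minimum of 10 counts in each library, 5 and 0 with the block, and 5 and 3 without the second ND library. The lower calls also numbered 2 in the fit of 2 groups and without the first vehicle, the third DPI or the fourth DPI library. Adam17, the protease that sheds TNF and its receptors from the cell surface, had 24.3 ± 10.7 CPM in ND, 54.0 ± 6.74 in vehicle and 32.7 ± 5.23 in DPI. Its log2 difference was 1.15 (SE 0.41, adjusted p 0.289 by edgeR) in vehicle against ND and -0.73 (SE 0.33, adjusted p 0.999) in DPI against vehicle, without overlap in either. Fadd, the death-domain adaptor that recruits caspase-8, was higher by 1.17 (SE 0.46) and Trafd1 by 1.05 (SE 0.38). With unscaled library sizes Adam17, Fadd and Trafd1 all fell short of the study's threshold. Adam17 also did without the second ND library, Fadd without the first ND library, and Trafd1 without the first ND library (0.56) or the third vehicle library. Traf3ip2 (Act1, the adaptor of IL-17 receptors) had 0 and 2 counts in ND and 22 to 77 in vehicle, at least 16.9-fold higher than the floor, or 9.84-fold without the first vehicle library. Map3k5 (ASK1, a kinase upstream of JNK and p38) had a log2 difference of -1.22 (SE 0.47, adjusted p 0.325 by edgeR), with 494 and 182 counts in ND. Without the first ND library it was -0.34, and the call was lost there, with the block and without the second or the third vehicle library. None of the 29 passed the study's threshold in DPI against vehicle, where 2.84% of all genes did, a share at which 29 genes hold less than 1 call.

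**Figure D3:**
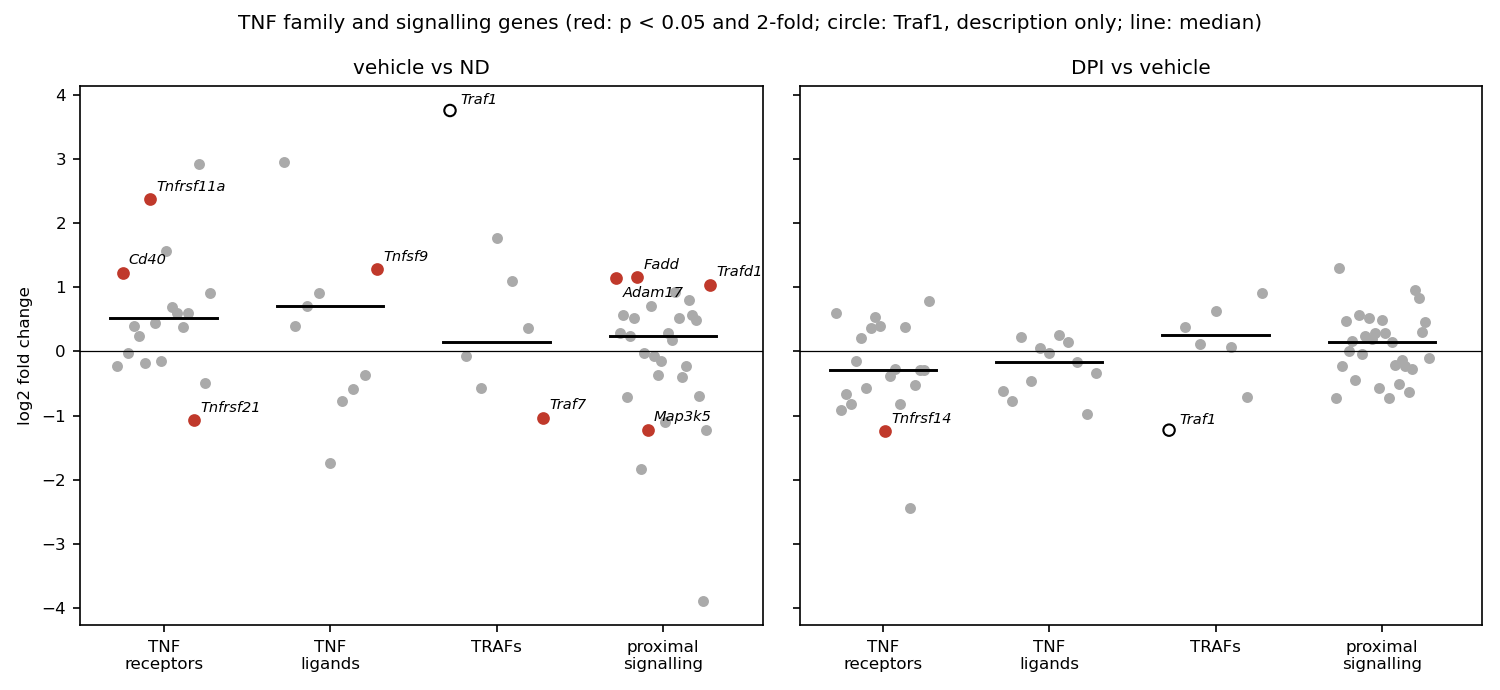
Log2 fold changes of the tested genes of 4 lists in vehicle against ND (left) and DPI against vehicle (right). Each point is a gene, red points pass an unadjusted p under 0.05 with a 2-fold change, the open circle is Traf1, whose value is a description, and black lines are medians over the tested genes of the list other than Traf1 and Tnfrsf9, bounds at their fitted values included. Genes given as bounds are not drawn. Red points are mostly above 0 on the left, and Tnfrsf14 is the single red point on the right.

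Markers of other cell types varied between the libraries, and some moved with the members. The summed CPM of 7 dendritic cell markers was 75.2 and 126 in ND, 196, 320 and 205 in vehicle and 138, 163, 268 and 409 in DPI. From ND to vehicle the sum rose as Traf1 did, but only through Ccr7, a chemokine receptor of mature dendritic cells and of lymphocytes. Ccr7 had 0 and 46.7 CPM in ND, 115, 276 and 142 in vehicle and 34.0, 74.0, 122 and 320 in DPI. The median sum was 205 CPM in vehicle and 216 CPM in DPI, while the mean of Traf1 was lower in DPI. The other 6 dendritic cell markers summed to 75.2 and 79.2 CPM in ND, 81.7, 44.1 and 62.9 in vehicle and 104, 89.3, 147 and 89.0 in DPI, so that vehicle was not above ND. The 6 neutrophil markers found, led by S100a8 and S100a9, summed to 658 and 2471 CPM in ND, 2022, 2666 and 3081 in vehicle and 515, 591, 2759 and 4600 in DPI. As with Traf1, the last 2 DPI libraries were above the first 2 in this sum, but the second ND library lay among the vehicle libraries. Mpo and Elane did not share this order, with 666 and 577 counts in the first DPI library and 34 and 76 in the fourth. The sort left out Gr1-high cells. The part of these cells in the Traf1 values was not tested.

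Beside Tnfrsf21, the 6 liver endothelial markers summed to 119 and 172 CPM in ND and 6.44 to 11.1 in vehicle. In DPI they summed to 123 in the first library, where Tnfrsf21 was also high, and to 73.0, 4.27 and 26.6 in the others, of which the second had the lowest Tnfrsf21 of the group. In vehicle, Clec4g had at most 7 counts and Stab2 at most 8. Pecam1, of the same list, went the other way, with 5 and 6 counts in ND and 39, 50 and 7 in vehicle. The 6 hepatocyte markers summed to 115 and 221 CPM in ND, 63.9, 17.95 and 30.2 in vehicle and 40.9, 80.5, 40.1 and 36.3 in DPI. They were higher in ND than in vehicle, as Tnfrsf21 was, and within DPI they were highest where Tnfrsf21 was lowest. The part of these cells in the Tnfrsf21 values was not tested.

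Of the lymphoid lists, the 8 T cell markers summed to 53.2 and 171 CPM in ND, 172, 274 and 198 in vehicle and 209, 415, 188 and 183 in DPI, with Cd4 at 0 in vehicle. Both ND libraries were below all others, the second by little. The 6 B cell markers summed to 15.8 and 75.8 CPM in ND, 108, 190 and 147 in vehicle and 48.0, 17.0, 119 and 433 in DPI, so ND was below vehicle without overlap and DPI spanned both. The 8 NK cell markers overlapped between all groups, with 45.7 and 195 CPM in ND, 118, 220 and 217 in vehicle and 95.3 to 241 in DPI. The part of T and B cells in the differences between vehicle and ND was not tested. The 3 libraries with Tnfrsf9 above the floor had NK sums of 195, 220 and 217 CPM. The first vehicle and the first DPI library, with 1 count of Tnfrsf9 each, had 118 and 95.3, and the third DPI library, with 0 counts, had 241. The part of NK cells in the Tnfrsf9 values was not tested. The 5 eosinophil markers lay at 3.26 CPM or less in ND and vehicle and reached 105 in DPI, and the 10 liver macrophage markers summed to 923 to 1398 CPM over all libraries.

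**Figure D4:**
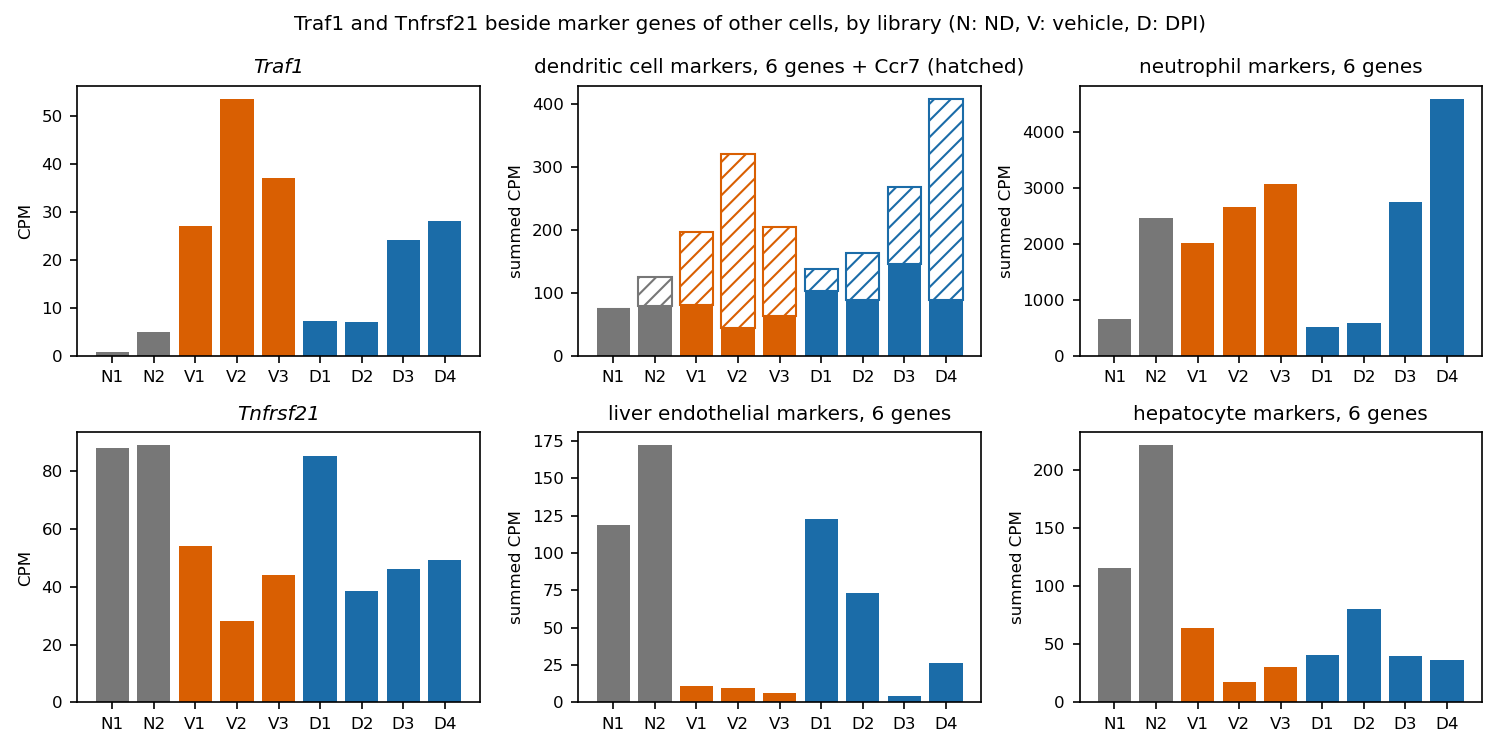
CPM of Traf1 and Tnfrsf21 and summed CPM of marker lists in each library (N1 and N2 ND, V1 to V3 vehicle, D1 to D4 DPI), bars starting at 0, with Ccr7 hatched on top of the other 6 dendritic cell markers. Ccr7 is low in N1, N2 and D1 as Traf1 is. In D2, where Traf1 is lowest of the DPI libraries (7.13 CPM), Ccr7 is 74.0 CPM, and in D4 Ccr7 exceeds every vehicle library. The other dendritic cell markers are not higher in vehicle than in ND. Tnfrsf21 and the endothelial sum are high in N1, N2 and D1, and the hepatocyte sum is high in N1 and N2 but not in D1.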

How the data were processed

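RNA-seq was done on sorted liver macrophages in 9 libraries (2 ND, 3 vehicle, 4 DPI), grouped by the descriptions in the sample labels. The authors deposited raw whole-number counts per gene, without normalization. The study's methods name bowtie2 and RSEM for counting on mm10, whereas the submitters' processing notes name TopHat2 and edgeR with mm10. All 9 columns were mapped and 0 were left out.

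Genes passing filterByExpr (11393 of 23413) were fitted over the 3 groups with edgeR 4.0.16 in R 4.3.3 (TMM factors, glmQLFit, glmQLFTest), with Benjamini-Hochberg adjustment over all of them, and no covariate. SEs were taken as the size of the log2 fold change over the root of F. The study's threshold (unadjusted p under 0.05 and at least 2-fold) was used beside the adjusted one. CPM used TMM factors, and log2 CPM for correlations a prior count of 2. Where all libraries of a group held 3 counts or fewer, folds are bounds against that floor, averaged over the group. Floors cover counting error only. The labels name 1 mouse per library, whereas the study's text gives more mice per group, so p-values measure the spread between libraries, pooled or not. DESeq2 1.42.0 was an alternative, and tables and plots were made in Python 3.11.15 (numpy 2.4.6, pandas 2.3.3, scipy 1.17.1, matplotlib 3.10.9). Loci and exonic lengths came from GENCODE M21 (GRCm38).

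The members, the gene and marker lists and the tests were chosen with earlier results of these data known, and counts without Traf1 and Tnfrsf9 were added after the data were seen. All members were named, and from each list every gene past the study's threshold in vehicle against ND or DPI against vehicle, or otherwise the gene with the smallest p, plus the 5 genes nearest to Traf1 and to Tnfrsf9. Marker genes were named after their values were seen. Alternatives were RLE or unscaled library sizes, no filter or a minimum of 10 counts in each library, DESeq2, fits of 2 groups, a replicate block, no Rn45s counts, thinning to the smallest library (seed 1), a prior count of 0.5 and each library left out. The edgeR step was tested on simulated counts for DPI against vehicle with 200 genes changed by a log2 fold change of 3 among 10937 tested, of which 126 passed the adjusted threshold (beside 8 false calls) and 177 the study's.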

Additional observations from a re-analysis of the deposited data

Results flagged for a closer look

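Tnfrsf9 in the first DPI library was set apart from the rest of its group, at 0.0613 CPM (1 count) where the other 3 DPI libraries had 0 counts. A single count cannot be told from none at a floor of 3 counts, and this was the deepest library. The gap test was run on 22 groups of 4 libraries (members and named family genes in DPI) and set apart 1 of them, where chance alone gives about 1 in 20.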

How the results depend on the processing

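Counts here leave out Traf1 and Tnfrsf9, as in the report, and are over the other 8 members and 66 tested family genes, with the share of all tested genes past the same threshold in brackets. In vehicle against ND, members past the study's threshold numbered 1 with unscaled library sizes (12.9%) and 2 in the fit of the report (11.7%), and DESeq2 called 2 family genes after adjustment (2.74%) where edgeR called 0 (0.0614%). In DPI against vehicle, family genes past the study's threshold numbered 3 with no filter (3.79%), 2 with a minimum of 10 counts in each library (2.99%) and 2 in the fit of 2 groups (3.78%), and 1 in the fit of the report (2.84%). In DPI against ND they numbered 2 with that minimum (7.80%) and 5 in the fit of the report (9.29%), and DESeq2 called 1 after adjustment (1.92%) where edgeR called 0 (0.00878%). Tnfrsf9 has no value with that minimum or in the 2-group fit of DPI against vehicle. Causes were not tested, beyond the smaller number of genes tested with the stricter filter.

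Same-numbered libraries of different groups hardly deviated together from their group means (r of -0.02 to 0.08 over 7 pairs). With 2 to 4 libraries in a group, such values cannot settle whether the numbers pair the libraries. With the replicate number as a block, 8 family genes passed the study's threshold in vehicle against ND (12.1%, beside 7.87% of all genes) and 13 without it (19.7%, beside 11.7%), so calls fell over all genes too. The block changed no other count by over 1.5 times over members or the whole family. The block turned Tnfrsf1a in DPI against ND to -0.031 on the log2 scale.

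Other reversals were of small differences: Traf2 in vehicle against ND was 0.022 after thinning, Tnfsf12 in DPI against vehicle 0.17 with unscaled library sizes and 0.26 after thinning, and Tnfrsf1a in DPI against ND -0.10 with unscaled library sizes. Of 526 member values under the alternatives, 23 reversed, and of 634 values of other named genes 4 did.

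With each library left out in turn, log2 fold changes that reversed ranged as follows. In vehicle against ND, Tnfrsf9 ranged from -0.074 to 8.16, Tnfsf12 from -2.62 to 1.38, Tnfsf13b from -1.43 to 2.01 (each turned without the first ND library) and Traf2 from -0.37 to 0.36. In DPI against vehicle, Tnfsf12 ranged from -0.46 to 0.69, Tnfsf13b from -1.07 to 1.05, Traf3 from -0.22 to 1.01, Tnfrsf25 from -0.87 to 0.66 and Traf3ip2 from -0.19 to 1.08. In DPI against ND, Tnfrsf1a ranged from -0.017 to 0.22, Tnfrsf9 from -7.00 to 1.22, Tnfsf12 from -2.63 to 1.36, Tnfsf13b from -1.61 to 2.16 and Tnfrsf14 from -1.06 to 0.28.

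With each library left out, members past the study's threshold ranged from 1 to 2, 0 to 1 and 0 to 2 in vehicle against ND, DPI against vehicle and DPI against ND. Family genes ranged from 9 to 17 (13.04% to 24.6%), 0 to 6 (0% to 9.23%) and 4 to 14 (5.97% to 20.3%), and the share of all genes from 9.04% to 21.4%, 1.65% to 4.64% and 7.40% to 21.3%. In vehicle against ND the fewest family calls came without the first ND library (12.4% of all genes) and the most without the second (21.4%). In DPI against vehicle there were 0 without the third vehicle library (1.85% of all genes), 3 without the first DPI library (1.91%) and 6 without the second vehicle library (4.64%), which also gave the 1 member. In DPI against ND there were 14 family genes and 2 members without the second ND library (21.3%), and 8 family genes without the fourth DPI library (8.83%). After adjustment, members ranged from 0 to 0 in each comparison and family genes from 0 to 5, 0 to 0 and 0 to 5, every call without the second ND library, which left 1 ND library assumed to vary like the other groups. There 568 and 572 of all 12334 tested genes passed the adjusted threshold in vehicle and in DPI against ND (7 and 1 of 11393 in the fit of the report).

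Low and uneven counts limit Tnfrsf9, Tnfsf12 and Tnfsf13b, and with 2 ND libraries the size of every difference from ND rests on a pair.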
